A study of Mus musculus with 4 samples.

Results

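Regions of accessible chromatin that lie at the ends of 2 or more protein-coding genes were examined in mouse pachytene spermatocytes, the meiotic cells in which paired homologous chromosomes complete recombination. Overlapping peaks of the 4 libraries (1 bp or more in common) were joined into regions, and those on chromosomes 1 to 19 were called shared when the midpoint lay within 1 kb of an end of 2 or more different protein-coding genes. Of 127091 autosomal regions, 2211 were shared, 15838 lay near the ends of exactly 1 protein-coding gene and 109042 lay near no such end. Of the shared regions, 2172 lay near 2 genes and 35 near 3 genes, and the rest lay in gene clusters. The choice used the positions of peaks and genes and no measured level. A region exists only where at least 1 library had a peak, so a longer list adds more regions of its own.

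The cells came from mouse testis and received either BMH-21, a small molecule that blocks RNA polymerase I, at 2.5 µM for 12 h, or the DMSO vehicle (mock). Each treatment had 2 ATAC-seq libraries, made with a transposase that inserts adapters where DNA is accessible. The sources used here gave neither strain, age nor number of mice, and they did not state that the 2 libraries of a treatment came from separate animals, so the spread between them may be technical. A group of 2 against 2 libraries allows an exact permutation p no smaller than 0.33, two-sided. Every difference between treatments below in a summary over a set of regions has that p unless another is given. Differences at single regions and in counts of marker genes were not tested.

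Protein-coding genes often lie head to head on opposite strands with their transcription starts close together, and the stretch between them then serves as a bidirectional promoter. Such promoters usually lie in CpG islands, seldom have a TATA box and drive many housekeeping, mitochondrial and DNA repair genes, several of which pachytene cells need for recombination. Genes can also converge, so that 2 transcript ends meet, or follow each other, so that the end of a gene lies beside the start of the next. Where 2 transcript ends converge, neither of the 2 genes starts.

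Gene direction was known for 17492 of 21887 protein-coding genes, from a table of RefSeq promoter windows on GRCm38.p6 (mm10) that reach from 250 bp before to 50 bp after each start. Of the shared regions, 882 lay at 2 starts on opposite strands (head-to-head), 394 at a start and an end (head-to-tail), 278 at 2 ends (tail-to-tail) and 29 at ends of the same type on the same strand. For 589 regions the direction of at least 1 gene was not known, and 39 lay near 3 or more genes. The median distance between head-to-head starts was 37 bp (interquartile range −141 to 135 bp, negative values marking transcripts that overlap), over 836 gene pairs.

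The windows below show head-to-head promoters that kept their peak in all 4 libraries, together with the strongest head-to-head region seen only with BMH-21 and a region seen only in mock. Capitals mark matches on either strand. The GC box was searched as GGGCGG. The CCAAT box was searched by the letters of its name. The TATA box was searched as TATAAA. The motif of the ETS family of transcription factors was searched as CCGGAAGT. The sequences run 5′ to 3′ in the direction of the named gene. Rpa3 and Rpa1 encode subunits of the single-strand DNA binding protein RPA, H2ac7 and H2bc7 encode core histones, and Hspd1 and Hspe1 encode the mitochondrial chaperonins. Ctu1, which lies beside Siglece, encodes a tRNA thiolation enzyme, and Xrcc1, which lies beside Pinlyp, encodes a scaffold of base excision repair. The other windows lie wholly inside their regions, and the Xrcc1 window lies inside the mock-only region with 123 of its bases.
Rpa3 (shared with Umad1, kept, chr6:8259092-8259391, minus strand): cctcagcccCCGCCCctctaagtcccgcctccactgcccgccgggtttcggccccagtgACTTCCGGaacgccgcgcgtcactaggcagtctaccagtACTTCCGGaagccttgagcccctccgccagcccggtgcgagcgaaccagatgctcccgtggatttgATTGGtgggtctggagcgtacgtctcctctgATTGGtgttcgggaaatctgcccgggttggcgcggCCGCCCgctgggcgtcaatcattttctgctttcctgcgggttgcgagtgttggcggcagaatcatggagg
H2ac7 (shared with H2bc7, kept, chr13:23574131-23574430, plus strand): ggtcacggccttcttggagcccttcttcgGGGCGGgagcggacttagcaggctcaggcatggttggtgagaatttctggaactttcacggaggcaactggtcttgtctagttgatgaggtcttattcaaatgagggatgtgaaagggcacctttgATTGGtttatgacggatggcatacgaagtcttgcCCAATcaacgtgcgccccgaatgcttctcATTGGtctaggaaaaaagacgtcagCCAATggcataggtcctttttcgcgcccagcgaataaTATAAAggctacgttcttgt
Hspd1 (shared with Hspe1, kept, chr1:55088194-55088493, minus strand): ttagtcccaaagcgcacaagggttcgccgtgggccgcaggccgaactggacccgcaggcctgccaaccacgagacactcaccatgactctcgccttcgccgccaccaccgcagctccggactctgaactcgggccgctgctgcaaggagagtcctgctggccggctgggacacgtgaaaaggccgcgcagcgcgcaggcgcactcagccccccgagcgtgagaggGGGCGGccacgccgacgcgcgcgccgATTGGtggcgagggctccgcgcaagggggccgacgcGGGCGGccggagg
Xrcc1 (shared with Pinlyp, mock only, chr7:24546449-24546748, plus strand): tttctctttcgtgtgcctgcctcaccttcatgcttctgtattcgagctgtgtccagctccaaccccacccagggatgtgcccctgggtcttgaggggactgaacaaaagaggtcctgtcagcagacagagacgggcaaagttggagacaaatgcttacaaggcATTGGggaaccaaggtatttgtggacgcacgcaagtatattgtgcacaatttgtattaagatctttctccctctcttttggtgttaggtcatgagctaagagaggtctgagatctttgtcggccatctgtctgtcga
Ctu1 (shared with Siglece, BMH-21 only, chr7:43671781-43672080, plus strand): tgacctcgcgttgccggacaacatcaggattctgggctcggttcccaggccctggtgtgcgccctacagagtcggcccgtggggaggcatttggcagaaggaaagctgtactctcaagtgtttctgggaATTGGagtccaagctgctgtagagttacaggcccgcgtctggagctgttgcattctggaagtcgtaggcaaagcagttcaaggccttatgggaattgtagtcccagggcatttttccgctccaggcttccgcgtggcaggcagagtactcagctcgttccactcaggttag

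The Rpa3 window held 28 CpG, 2 GC boxes, 2 CCAAT boxes and 2 ETS motifs, and the window of its partner Umad1 covered the same ETS motifs. The H2ac7 window held 15 CpG, 4 CCAAT boxes, 1 GC box and 1 TATA box. The Hspd1 window held 39 CpG, 2 GC boxes and 1 CCAAT box. The Ctu1 and Xrcc1 windows held 14 and 7 CpG and 1 CCAAT box each, with none of the other motifs. A match is a description of letters and not a measured binding site.

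The lists held 51234 and 55459 peaks with BMH-21, against 109230 and 117905 in mock, and 34899 and 38099 autosomal peaks with BMH-21, against 90181 and 97291 in mock. Read totals are not used here, so depth is unknown, and a region without a peak fell below the caller's threshold in that library. A site closed in some cells and a site less open in all cells cannot be told apart in bulk material. Of 8 pachytene marker genes, 8 and 7 had a peak within 1 kb of an end with BMH-21 and 8 and 8 in mock. Markers of other cells had a peak less often with BMH-21: 3 and 3 of 5 Sertoli genes (mock 5 and 5), 0 and 0 of 5 round spermatid genes (mock 2 and 3), 1 and 1 of 5 macrophage genes (mock 4 and 4), 0 and 0 of 4 Leydig genes (mock 2 and 2) and 3 and 3 of 5 spermatogonial genes (mock 4 and 4). Lone gene starts in the annotation also had a peak less often with BMH-21, at 53.9% and 54.4%, against 62.4% and 62.9% in mock. Lone gene ends had one at 6.86% and 6.97%, against 18.6% and 19.0% in mock. A difference particular to markers therefore cannot be read from lists of 4 or 5 genes. The part of these cells and of list length in the results below was not tested, except where equal lists are given.

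In the lists as deposited, head-to-head promoters mostly had a peak with BMH-21 and tail-to-tail sites mostly had none. A peak was present at 94.9% and 95.8% of the 882 head-to-head regions with BMH-21, against 96.4% and 97.1% in mock, a difference of −1.36 percentage points. At the 278 tail-to-tail regions a peak was present at 17.3% and 19.1% with BMH-21, against 74.8% and 83.1% in mock, a difference of −60.8 points. Head-to-tail regions lay between these extremes, with 71.1% and 71.6% with BMH-21 against 87.6% and 87.8% in mock. Regions near no protein-coding gene end had a peak at 20.3% and 22.3% with BMH-21, against 66.7% and 72.9% in mock. The difference there was −48.5 points, and the tail-to-tail shares with BMH-21 lay close below these. The groups did not overlap in any of these arrangements, nor at regions near no protein-coding gene end. Over all 2211 shared regions the shares were 73.0% and 74.6% with BMH-21, against 90.3% and 91.8% in mock.

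In the lists as deposited, lone starts differed more between treatments than paired starts, an order that turned in lists of equal length (6.70 points at lone starts, against 12.1 points at paired starts). The 9427 regions at the start of exactly 1 gene held a peak at 78.0% and 78.9% with BMH-21, against 91.7% and 92.9% in mock. The head-to-head share exceeded this share by 16.9 and 16.9 points in the BMH-21 libraries, against 4.68 and 4.19 points in the mock libraries, a difference of 12.4 points. At transcript ends the gap had the opposite sign in the deposited lists. The tail-to-tail share differed from that of the 2991 regions at the end of exactly 1 gene by −5.03 and −4.34 points with BMH-21, against 1.73 and 7.93 points in mock, a difference of −9.52 points. In lists of equal length that gap was 14.5 and −14.7 points with BMH-21, against −17.9 and −13.2 points in mock. The difference was 15.4 points (exact permutation p = 0.67), so the sign turned and the BMH-21 libraries lay far apart. To reach equal length, BMH-21 library 1 lost no peak (lowest fold 1.55). The lowest folds kept were 2.94 in BMH-21 library 2 and 4.49 and 4.67 in mock. Peaks with folds between these limits were thus kept in some lists and removed from others. Median folds of the 29 tail-to-tail regions in all 4 libraries were 3.30 and 3.22 with BMH-21, against 3.47 and 3.49 in mock. The 39 regions near 3 or more genes held a peak at 84.6% and 87.2% with BMH-21, against 87.2% and 89.7% in mock, with p = 0.67 in the exact permutation test and groups that touched.

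**Figure D1:**
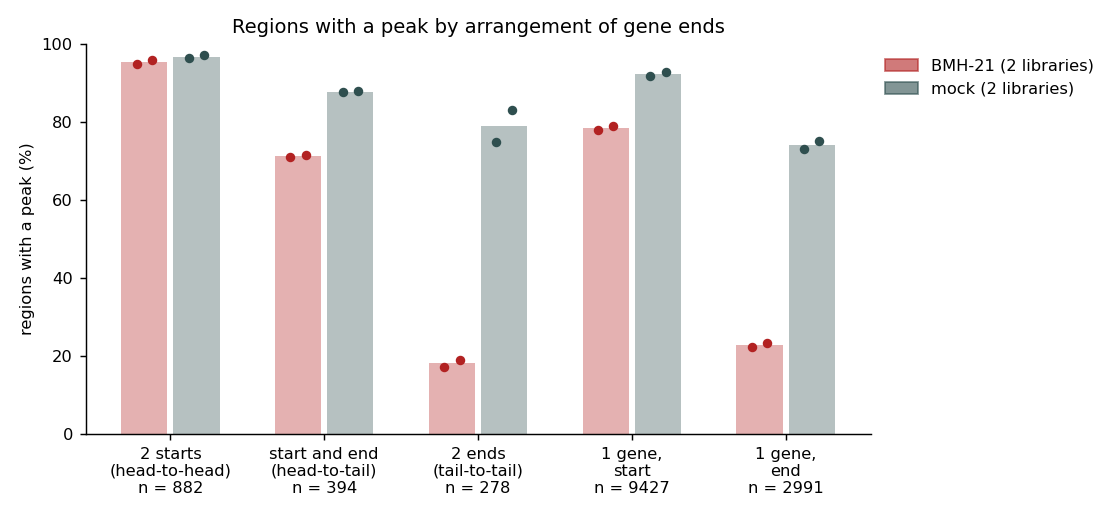
Share of regions with a peak (%, vertical axis) by arrangement of the gene ends; bars are group means, points the 2 libraries of each treatment, BMH-21 left of mock, and n counts regions. Head-to-head regions reach 94.9% and 95.8% with BMH-21, close to mock, whereas tail-to-tail regions reach 17.3% and 19.1%.

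The direction of these shares depends on the length of the lists. Each list was cut to its 51234 highest folds over all chromosomes, so the autosomal part of each list was not itself set to equal length. Head-to-head regions then held a peak at 98.5% and 96.4% with BMH-21, against 85.9% and 84.7% in mock. Lone starts held a peak at 88.5% and 88.0% with BMH-21, against 81.7% and 81.4% in mock. In equal lists the share with a peak was higher in both BMH-21 libraries at head-to-head, head-to-tail, tail-to-tail, lone-start and lone-end regions alike. The gap between the head-to-head and lone-start shares kept its sign, at 9.97 and 8.42 points with BMH-21, against 4.15 and 3.34 points in mock. The share of regions without a BMH-21 peak also kept its order: 5 of 718 head-to-head regions present in both mock lists were absent from both BMH-21 lists (0.696%), against 438 of 6581 lone-start regions (6.66%).

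Paired starts stood above lone starts and above paired ends also when sites were counted from the annotation alone, whether or not they had a peak. Of 835 annotated pairs of starts, 95.4% and 95.8% had a peak with BMH-21, against 97.0% and 97.2% in mock. Of 688 annotated pairs of ends, 13.8% and 13.8% had a peak with BMH-21, against 41.4% and 45.1% in mock, a difference of −29.4 points. No library had a peak at 345 of these 688 pairs. Lone starts had a peak at 53.9% and 54.4% of 13860 sites with BMH-21, against 62.4% and 62.9% in mock. Paired starts were thus more often accessible than lone starts in every library, and 19 of the 835 had no peak in any library. Lone ends had a peak at 6.86% and 6.97% of 14089 sites with BMH-21, against 18.6% and 19.0% in mock. In this count paired ends thus stood above lone ends in every library. Among the regions with BMH-21, tail-to-tail sites had stood below lone ends.

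A region was called mock-only when both mock libraries and neither BMH-21 library held it. Over all autosomal regions, 63.7% of the regions in both mock libraries were mock-only, and of those near no protein-coding gene end 74.3% were. Of head-to-head regions, 17 of 846 were mock-only (2.01%, exact 95% interval 1.17 to 3.20%), against 1175 of 8347 lone-start regions (14.1%, interval 13.3 to 14.8%). Of tail-to-tail regions, 135 of 179 were mock-only (75.4%, interval 68.4 to 81.5%), against 1260 of 1755 regions at lone ends (71.8%, interval 69.6 to 73.9%). Intervals cover counting error only. The head-to-head share was 3.19% without BMH-21 library 2 and 3.03% without mock library 1, and it was 24.8%, against 31.7% at lone starts, when each peak was cut to 100 bp on either side of its summit. Head-to-tail regions stood at 70 of 325 (21.5%), regions of unknown direction at 112 of 505 (22.2%), and all shared regions at 343 of 1912 (17.9%), against 3182 of 12892 regions near 1 gene (24.7%).

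The reverse pattern was rarer at paired than at lone starts. Over all autosomal regions, 19.5% of the regions in both BMH-21 libraries were absent from both mock libraries (BMH-21-only). This applied to 10 of 828 head-to-head regions (1.21%), against 196 of 7115 lone-start regions (2.75%), and to 45 of 1577 shared regions in all (2.85%), against 397 of 9581 regions near 1 gene (4.14%). Without BMH-21 library 1 the BMH-21-only share was 5.36% of shared regions, against 7.06% of regions near 1 gene, and the head-to-head share was 2.56% without that library and 2.03% without BMH-21 library 2. In lists of equal length these shares were much higher: 91 of 820 head-to-head regions (11.1%), against 924 of 7068 lone-start regions (13.1%). The order of shared and single-gene regions turned there, at 21.7% of shared regions, against 15.9% of regions near 1 gene. A peak in all 4 libraries was found at 815 of 882 head-to-head regions and 29 of 278 tail-to-tail regions. For comparison, it was found at 6836 of 9427 lone-start, 304 of 2991 lone-end and 9864 of 109042 regions near no protein-coding gene end. The tail-to-tail count was thus close to those of lone ends and of regions near no such end.

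Strong peaks are kept more often than weak peaks, so the comparison was repeated within classes of strength, the mean percentile of the deposited fold within the 2 mock lists. In the weakest class, percentile 0 to 20, 5 of 34 head-to-head regions were mock-only (14.7%, interval 4.95 to 31.1%), against 223 of 457 lone-start regions (48.8%, interval 44.1 to 53.5%). In the middle class, percentile 40 to 60, the counts were 3 of 42 head-to-head regions (7.14%) and 227 of 626 lone-start regions (36.3%). In the strongest class they were 1 of 621 head-to-head regions (0.161%) and 297 of 5514 lone-start regions (5.39%). The head-to-head share was lower in every class, with intervals that did not overlap. At transcript ends the intervals of paired and lone sites overlapped in each class with at least 20 paired regions: 82.2% against 86.2% were mock-only in the weakest class.

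**Figure D2:**
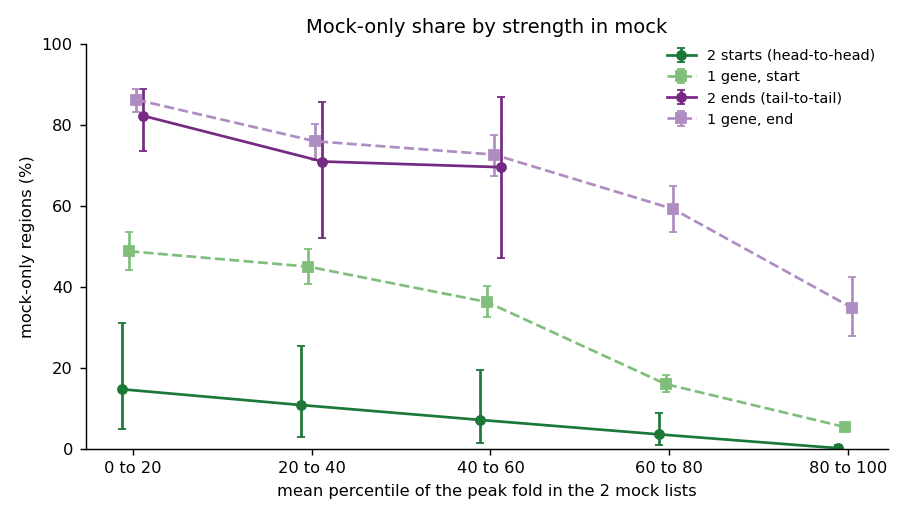
Mock-only share (%) of the regions present in both mock libraries, by strength class (mean percentile of the fold in the mock lists); bars are exact 95% intervals and only classes with at least 20 regions are drawn. Head-to-head regions lie below lone starts in all classes, at 14.7% against 48.8% in the weakest, while paired and lone ends overlap.

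Region width and CpG content were also higher at paired starts. Head-to-head regions had a median width of 1205.5 bp, against 971 bp at lone starts, and their promoter windows a median of 24 CpG, against 19 CpG. Among regions with peaks of over 800 to 1200 bp in mock, 2 of 366 head-to-head regions (0.546%) and 180 of 3169 lone-start regions (5.68%) were mock-only. With at most 400 bp the counts were 12 of 31 (38.7%, interval 21.85 to 57.8%) and 478 of 788 (60.7%, interval 57.2 to 64.1%), so the intervals overlapped. With over 25 CpG per window, 2 of 378 head-to-head regions were mock-only (0.529%, interval 0.064 to 1.90%), against 93 of 2619 lone-start regions (3.55%, interval 2.88 to 4.33%). With over 10 to 15 CpG, the counts were 4 of 87 (4.60%, interval 1.27 to 11.4%) and 144 of 1136 (12.7%, interval 10.8 to 14.8%). With over 5 to 10 CpG, they were 3 of 21 (14.3%, interval 3.05 to 36.3%) and 302 of 930 (32.5%, interval 29.5 to 35.6%). The intervals overlapped in both of these classes. With 0 to 5 CpG, 6 of 11 head-to-head regions were mock-only (54.5%, interval 23.4 to 83.3%), against 349 of 593 lone-start regions (58.9%), which cannot be separated with so few paired regions. The share was thus lower at higher CpG counts, at paired and at lone starts.

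**Figure D3:**
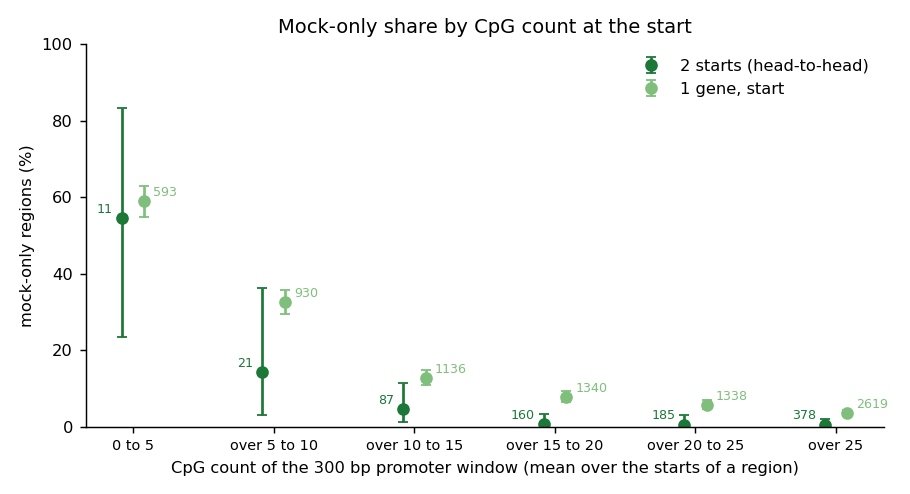
Mock-only share (%) by the CpG count of the 300 bp promoter window, averaged over the starts of a region; bars are exact 95% intervals and the number beside each point is the count of regions in both mock libraries. Shares are 0.529% at paired and 3.55% at lone starts above 25 CpG, and over 50% in the lowest class of both.

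CpG count and strength together gave the same order. With over 15 CpG and a strength in the top 2 of 10 classes, 0 of 557 head-to-head regions were mock-only (interval 0 to 0.66%), against 115 of 3976 lone-start regions (2.89%). With 15 or fewer CpG and a strength in the lower 5 classes, the counts were 6 of 28 (21.4%, interval 8.30 to 41.0%) and 392 of 625 (62.7%, interval 58.8 to 66.5%). The share was similar at distances between the starts of up to 500 bp. The mock-only share was 1.94% of 309 regions with overlapping transcripts, 1.53% of 392 with starts 0 to 200 bp apart, 1.80% of 111 with starts over 200 to 500 bp apart and 3 of 30 (10.0%, interval 2.11 to 26.5%) with starts over 500 to 1000 bp apart.

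Head-to-head peaks ranked lower within the BMH-21 lists than within the mock lists. The median head-to-head region with a peak stood at percentile 68.5 and 69.1 of the deposited folds with BMH-21, against 89.8 and 89.9 in mock. Lone starts stood at percentile 73.6 and 74.7 with BMH-21, against 88.0 and 88.1 in mock. Head-to-head regions therefore ranked below lone starts by 5.07 and 5.58 percentile points with BMH-21 and above them by 1.81 and 1.80 points in mock, a change of −7.13 points. A percentile depends on how many weak peaks a list holds, and the mock lists were longer. In lists of equal length the head-to-head percentile was 68.4 and 67.3 with BMH-21, against 79.4 and 79.0 in mock, a difference of −11.4 points. The gap to lone starts was then −4.95 and −5.90 points with BMH-21, against −0.203 and −0.081 points in mock, a change of −5.28 points. Paired starts thus no longer ranked above lone starts in mock. Nor did they among regions in all 4 libraries of the deposited lists, at percentile 90.3 and 90.4 in mock, against 90.6 and 90.9. The cut to equal length was made over all chromosomes, so the autosomal lists used for percentiles were not themselves made equal. Among regions in all 4 libraries the deposited lists gave lower percentiles with BMH-21 at head-to-head (−20.6 points), head-to-tail (−13.4 points) and tail-to-tail regions (−15.6 points) and at lone starts (−14.6 points) and lone ends (−14.5 points). The median covered width of head-to-head regions in all 4 libraries was 1091 and 1081 bp with BMH-21, against 1137 and 1134 bp in mock. For shared regions of all arrangements the change in percentile was −13.5 points, and it turned to 11.4 points when a window of 2.5 kb around gene ends was used.

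The summit of the peak, the position of highest signal in the authors' call, lay elsewhere in the 2 treatments. In 382 head-to-head regions with a peak in all 4 libraries and starts 0 to 200 bp apart, the median distance between the summit and the middle of the starts was 77.3 and 77.8 bp with BMH-21, against 192.5 and 197.75 bp in mock, a difference of −118 bp. The summit lay within 100 bp of that middle in 58.4% and 59.2% of regions with BMH-21, against 22.0% and 20.7% in mock. With BMH-21 the summits thus formed a single group around the middle of the starts, not all of it between them, whereas mock summits formed a group on either side of the middle. At lone starts the summits differed alike: they lay a median of 106 and 107 bp from the start with BMH-21, against 218 and 216 bp in mock. They lay on the gene side of the start in 65.2% and 65.1% of these regions with BMH-21, against 86.6% and 86.6% in mock.

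**Figure D4:**
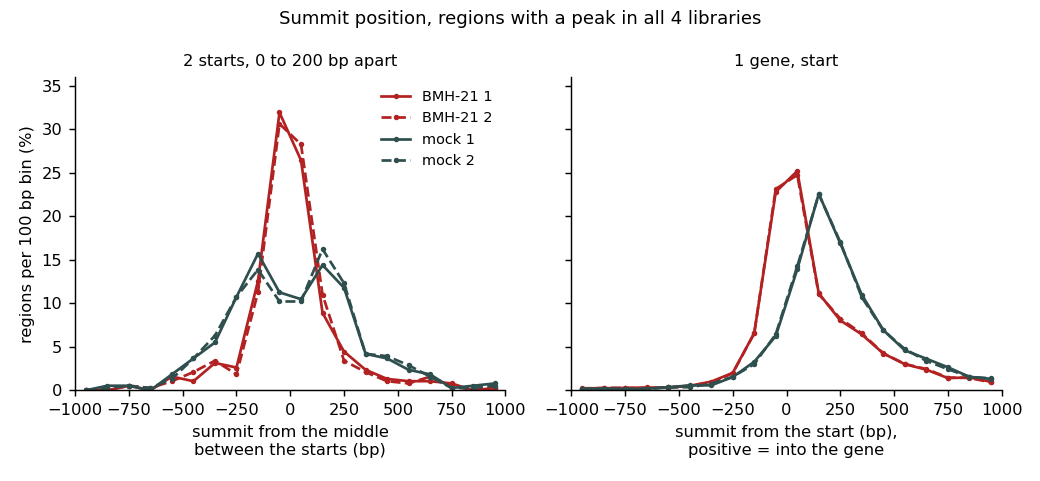
Distribution of peak summits in 100 bp bins (% of regions in all 4 libraries, 1 line per library) around the middle of paired starts 0 to 200 bp apart (left, 382 regions) and around lone starts (right, 6836 regions). BMH-21 summits gather at the middle of the starts, and mock summits lie to either side at paired starts and more often on the gene side at lone starts.

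The shift in median distance was −118 bp at the close paired starts and −111 bp at lone starts, and the difference between these shifts, −7.13 bp, was small beside either. Head-to-head regions with overlapping transcripts showed a smaller shift, at 158 and 170 bp with BMH-21, against 184 and 182 bp in mock. At the 29 tail-to-tail regions in all 4 libraries the distances were 515.5 and 508 bp with BMH-21, against 503 and 570.5 bp in mock, so that the groups overlapped (exact permutation p = 1). Over 815 head-to-head regions, summits of the 2 BMH-21 libraries lay a median of 12 bp apart and those of the 2 mock libraries 27 bp apart, while summits of a BMH-21 and a mock library lay 126 to 134 bp apart. The shift was therefore larger than the distance between replicates.

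The 17 mock-only head-to-head regions were narrow and weak, with a median width of 316 bp and a median fold of 3.55 in mock, against a median fold of 7.31 over the 815 regions in all 4 libraries. At 9 of the 17 another peak lay within 1 kb of a start in both BMH-21 libraries, so that a peak near the promoter was still called. Pinlyp/Xrcc1, whose Xrcc1 window is printed above, was such a region, and its mock-only peak of 262 bp had folds of 3.88 and 4.10. Others, singled out here after their values were seen, were Stat5b/Stat5a, which encode signal transducers, and Sirt6/Ankrd24, where Sirt6 encodes a chromatin deacetylase. At the other 8 no BMH-21 peak lay within 1 kb of a start. These were Poglut2/Bivm, Ngef/Neu2, Wfdc6b/Wfdc8, Abhd16b/Zbtb46, Kirrel2/Nphs1, H2-T22/Gm6034 and Cd160/Pdzk1, the last with 2 of the 8 regions.

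The Poglut2/Bivm region, where Poglut2 encodes a protein O-glucosyltransferase, had folds of 7.25 and 7.49 in mock. Its mock summits lay 1030.5 and 1078.5 bp from the middle of the starts, on the Bivm side, so the mock-only peak was not at the start itself. Among the other pairs, Nphs1 encodes nephrin of the kidney filter, and Wfdc6b and Wfdc8 belong to a cluster of whey acidic protein domain genes. Windows of mock-only head-to-head regions had a median of 8 CpG, against 25 CpG in those kept in all 4 libraries.

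Of the 10 BMH-21-only head-to-head regions, 6 had a mock peak near a start in both mock libraries and 4 had none. The 4 were Mrps2/1700007K13Rik, Phf24/Fam205c, Nek8/Tlcd1 and Ctu1/Siglece. Ctu1/Siglece had the highest folds, 8.03 and 8.99 with BMH-21, and its summit lay 14.5 bp from the middle of the starts in both BMH-21 libraries. Mrps2, which encodes a mitochondrial ribosomal protein, had folds of 2.99 and 3.66 at its region.

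Of 13 gene pairs known from the literature as head-to-head or sharing a promoter, 9 had a region with a peak in all 4 libraries. The mitochondrial chaperonin genes Hspd1 and Hspe1 had folds of 9.32 and 9.28 with BMH-21, against 7.80 and 7.83 in mock. Atm, the kinase that signals DNA breaks, and Npat, a coactivator of histone genes, had 7.02 and 7.19 with BMH-21, against 8.58 and 9.02 in mock. Pdcd10/Serpini1 had 10.04 and 10.5 with BMH-21, against 7.95 and 7.86 in mock. Each fold compares a peak with its own surroundings in 1 library, so an order between treatments describes contrast and not an absolute level.

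A repair and replication pair was among those kept. Mcm4/Prkdc, a helicase subunit and the DNA-PK catalytic subunit, had 9.16 and 9.98 with BMH-21, against 8.95 and 8.82 in mock. The purine synthesis pair Paics/Ppat had 7.97 and 7.84 with BMH-21, against 6.09 and 6.73 in mock. The histidyl-tRNA synthetase pair Hars2/Hars had 8.54 and 8.15 with BMH-21, against 9.67 and 10.1 in mock. Of the remaining kept pairs, Sirt3/Psmd13 and Surf2/Surf1 had lower folds with BMH-21 in both libraries and Mrps12/Sars2 had higher folds.

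Both collagen IV pairs lacked a peak in at least 1 BMH-21 library. Col4a3/Col4a4, basement membrane collagens of kidney and lung, had no peak in either BMH-21 library, against folds of 5.60 and 7.15 in mock. Col4a2/Col4a1 had no peak in BMH-21 library 1 and a fold of 6.86 in BMH-21 library 2, against 6.24 and 6.42 in mock. Psmb9/Tap1, which encode an immunoproteasome subunit and a peptide transporter, had 2 regions, and each lacked a peak in 1 BMH-21 library only. Psmb1/Tbp had no shared region, with ends 1612 bp apart.

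**Figure D5:**
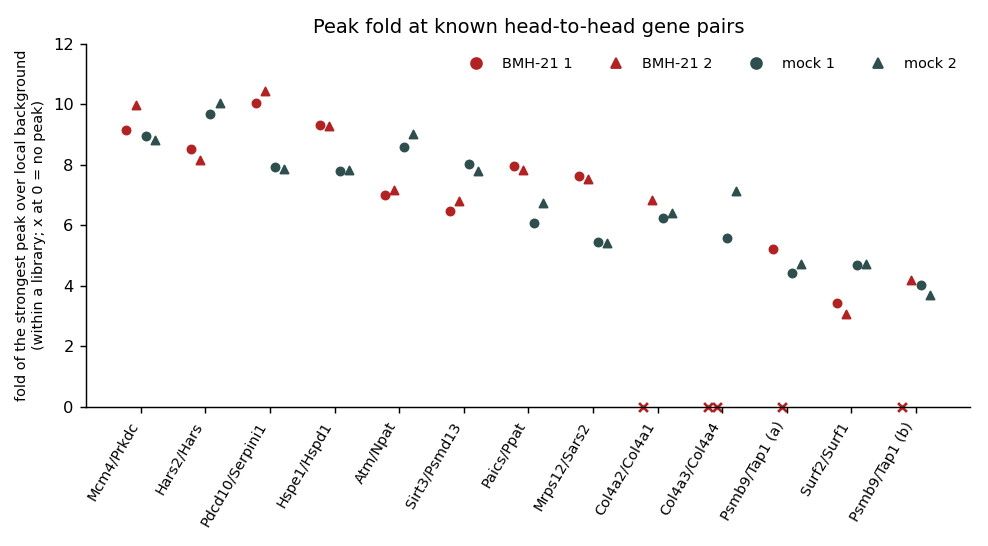
Deposited fold (vertical axis, relative to local background within a library) of the strongest peak at 13 regions of known head-to-head gene pairs, 1 symbol per library, with crosses at 0 for no peak; Psmb9/Tap1 has 2 regions, a and b. Crosses occur in BMH-21 libraries only, at both collagen pairs and Psmb9/Tap1.

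At the promoters shown above, the summits followed the general shift unevenly. In H2bc7/H2ac7 the summit lay 26 and 26 bp from the middle of the starts with BMH-21, against 24 and −41 bp in mock, positive values pointing to higher coordinates. The folds there were 12.4 and 11.3 with BMH-21, against 8.58 and 8.08 in mock. In Hspe1/Hspd1 the summit lay at −115.5 and −118.5 bp with BMH-21, against −570.5 and −583.5 bp in mock. In Rpa3/Umad1 it lay at 149.5 and 130.5 bp with BMH-21, against 261.5 and 259.5 bp in mock, with folds of 11.4 and 11.7 with BMH-21, against 11.4 and 11.5 in mock. The histone pair thus kept its summit near the middle, and the other 2 pairs had BMH-21 summits closer in than mock summits.

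Of 91 annotated DNA repair genes on a list, 45 lay at 52 shared regions, 30 of them head-to-head. A peak in all 4 libraries was found at 41 of the 52, and 6 of the 47 in both mock libraries were mock-only, against 10 of 55 for regions of the same list near 1 gene. The background for this and the following lists is 63.7% mock-only over all autosomal regions and 17.9% over all shared regions. The BMH-21-only shares are 19.5% and 2.85%. A peak in all 4 libraries was found at 1517 of all 2211 shared regions. A list near the share of all shared regions shows nothing particular to its genes. Head-to-head regions alone were 2.01% mock-only and tail-to-tail regions 75.4%, so a share also depends on the arrangements in a list. Lists were not compared within an arrangement. The kept regions included Smyd4/Rpa1, with folds of 11.1 and 12.2 with BMH-21, against 13.1 and 12.5 in mock. The strongest mock-only repair region was tail-to-tail, at Camk1/Ogg1, where Ogg1 encodes the 8-oxoguanine glycosylase, with folds of 4.34 and 4.08 in mock. Of the meiosis list, 4 of 10 shared regions were head-to-head. In all 4 libraries 8 of the 10 were kept, and 0 of 8 were mock-only, against 5 of 46 near 1 gene. They included Patl2/Terb2, where Terb2 encodes a meiotic telomere attachment protein, at 10.8 and 10.5 with BMH-21, against 10.9 and 12.9 in mock.

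Mitochondrial genes formed another group. Of 78 mitochondrial ribosomal protein genes, 38 lay at 44 shared regions, 26 of them head-to-head. A peak in all 4 libraries was found at 39 of the 44. Of the 40 in both mock libraries 0 were mock-only. This compares with 5 of 44 near 1 gene, 17.9% of all shared regions and 2.01% of all head-to-head regions. Mrpl44/Wdfy1 had folds of 10.4 and 9.97 with BMH-21, against 15.7 and 14.2 in mock, and Helq/Mrps18c had 9.67 and 9.76 with BMH-21, against 13.7 and 14.8 in mock. In both regions the groups did not overlap. The median fold of all 815 head-to-head regions in all 4 libraries was also lower with BMH-21. It was 6.67 and 6.74 with BMH-21, against 7.80 and 7.93 in mock, so lower folds were not particular to this list. Of the respiratory chain list, 32 of 42 regions were kept, and 21 of the 42 were head-to-head. Here 6 of 38 were mock-only, against 9 of 56 near 1 gene, so the share lay near that of all shared regions. The 6 included Ndufa3/Tfpt, a tail-to-tail region, and Itgad/Cox6a2. Of the aminoacyl-tRNA synthetases, 16 of 21 regions were kept and 3 of 19 were mock-only, also near the share of all shared regions, against 2 of 27 near 1 gene. The strongest mock-only region of this list was at the converging ends of Mars1 and Ddit3, with folds of 2.81 and 2.97 in mock.

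Ribosomal protein genes of the cytosol had 26 shared regions, 10 of them head-to-head, and 23 of the 26 were kept in all 4 libraries. Here 1 of 24 was mock-only, against 4 of 63 near 1 gene and 17.9% of all shared regions, and 2 were BMH-21-only. Rpl9/Lias, a head-to-head pair, had folds of 7.83 and 8.30 with BMH-21, against 11.8 and 11.1 in mock. The proteasome list had 12 shared regions, 7 of them head-to-head. Of these 12, 7 were kept, and 0 of 9 were mock-only (3 of 32 near 1 gene). Its 1 BMH-21-only region, at Tap1/Psmb8, had folds of 3.96 and 6.09 with BMH-21. Replication-dependent histone genes had 13 of 20 kept and 4 of 18 mock-only, near the share of all shared regions, against 10 of 27 near 1 gene. The strongest mock-only regions were H2ac18/H3c14 (4.55 and 4.63 in mock) and H3c15/H2ac19 (4.66 and 4.51 in mock), both head-to-tail. These histone genes are near-identical copies, so reads may have been shared between them.

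Genes of later sperm development showed several patterns. Of 14 shared regions of the spermiogenesis list, 7 were kept in all 4 libraries, 3 of 10 were mock-only and 2 were BMH-21-only. The mock-only count was 7 of 26 for regions of the list near 1 gene, and the share of all shared regions was 17.9% mock-only and 2.85% BMH-21-only. Prm3/Prm2, beside the protamine genes that pack sperm DNA, had no BMH-21 peak, against folds of 3.97 and 3.72 in mock. Izumo1, which encodes the sperm protein of egg fusion, lay at 2 shared regions of opposite pattern: Fut1/Izumo1 with folds of 8.13 and 7.68 with BMH-21 only, and Izumo1/Rasip1 with folds of 2.53 and 3.24 in mock only. Catsper4/Cnksr1, at a subunit gene of the sperm calcium channel, had 4.14 and 4.68 with BMH-21 only. The kinase gene Tssk3, head-to-head with Fam229a, was kept at 7.33 and 7.17 with BMH-21, against 8.94 and 9.12 in mock.

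In the remaining lists, 33 of 43 Zfp gene regions were kept and 5 of 39 were mock-only, against 37 of 285 near 1 gene and 17.9% of all shared regions. Of the p53 target genes, 4 of 8 regions were kept and 1 of 5 was mock-only, against 6 of 26 near 1 gene. Ikbip/Apaf1, where Apaf1 encodes the core of the apoptosome, had folds of 12.7 and 13.0 with BMH-21, against 8.56 and 9.11 in mock. Cep57l1/Sesn1, where Sesn1 encodes a stress-induced regulator of growth signalling, had 6.12 and 6.39 with BMH-21, against 10.02 and 10.8 in mock. The order of the treatments was thus opposite at these p53 targets. Protocadherin and keratin genes had few shared regions, with 0 of 5 and 1 of 4 kept, and 1 of 2 mock-only in each list, against 10 of 15 and 41 of 52 near 1 gene. At the kept keratin region, Krt78/Krt8, folds were 9.06 and 8.71 with BMH-21, against 3.71 and 3.65 in mock.

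Ranked by the mean fold over the libraries that held it, the first shared region was mock-only, and the next was held by all 4 libraries. In the mock libraries alone, the region held by all 4 had the higher folds. The region held by all 4, Asdurf/Asnsd1, had folds of 13.9 and 13.4 with BMH-21, against 17.7 and 18.96 in mock. Its percentiles were 99.5 and 98.9 with BMH-21, against 99.99 and 99.99 in mock. Nadsyn1/Dhcr7, where Dhcr7 encodes the last enzyme of cholesterol synthesis, had 12.5 and 13.0 with BMH-21, against 12.6 and 14.9 in mock. The mock-only region was D830030K20Rik/Gm38690, at 17.1 and 15.2 in mock. These are predicted genes on proximal chromosome 14 where near-identical copies can share reads. Of the BMH-21-only regions the strongest was Rasip1/Mamstr, at 9.51 and 9.62 with BMH-21.

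Among regions in all 4 libraries, the largest differences of rank were at head-to-tail sites with 1 exception. Polg2/Ddx5 had folds of 3.57 and 3.33 with BMH-21, against 8.91 and 10.2 in mock. Ddx5 encodes an RNA helicase. Gm52215/Kif21a had 4.03 and 3.91 with BMH-21, against 10.03 and 10.2 in mock. The exception was Chtf18/Rpusd1, a head-to-head region that ranked higher with BMH-21, with folds of 7.74 and 7.81 with BMH-21, against 2.57 and 2.52 in mock. Chtf18 encodes a clamp loader subunit of DNA replication. Hyal3/Ifrd2 and Pgap6/Mrpl28 likewise ranked higher with BMH-21. The groups did not overlap at any of these regions, which were chosen for their difference, so no test is given.

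Regions near many genes lay in clusters with shared ends. The 2 regions near 24 genes lay at the common end of the gamma protocadherin cluster on chromosome 18 and were held by 3 libraries each. A region near 9 and another near 7 Ugt1a genes were each held by mock library 2 only. The Naa80/Hyal3/Hyal1 region was BMH-21-only, with folds of 6.55 and 6.88.

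Promoter windows of kept head-to-head regions (1525 windows at 815 regions) had a median GC content of 63.0% and 25 CpG, against 62.7% and 22 CpG in kept lone-start regions and 52.7% and 7 CpG over all 32851 windows of the table. The ETS letters CCGGAAGT were found in 14.3% of kept head-to-head windows, against 7.78% of kept lone-start windows and 3.89% of all windows. The TATA letters were found in 4.33% of kept head-to-head windows, against 6.22% of kept lone-start windows and 13.6% of all windows. The GC box stood at 67.3%, 71.3% and 35.7%, and the CCAAT box at 39.7%, 38.4% and 37.4% of the same 3 sets. Windows of a close pair cover part of the same bases, as in Rpa3 and Umad1, so they are not independent. Other motifs were rarer. The cyclic AMP response element, searched as TGACGTCA, was found in 4.0% of kept head-to-head windows, against 1.79% of all windows, and a palindromic NRF1 motif in 2.82%, against 0.971% of all windows. None of these strings contains another.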

How the data were processed

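Peaks were deposited as 1 list per library, per the labels. The submitters' processing notes name MACS2 2.1.0, Bowtie2, fastp, bedtools and deepTools, and the builds mm39 and mm10. Parameters, read filters and any shift of read ends are not given in the sources used here. Coordinates were taken as mm10, because peaks on chromosome 1 reach position 195371813, where mm39 has no such position. The authors' deposited values per peak are a score, a fold (a ratio to local background), a −log10 p and a −log10 q, with a smallest −log10 q of 2.01 to 2.09. None is normalised between libraries, so folds were used only to describe and rank peaks within a list. About 10000 cells per sample and 14 PCR cycles were used, per the labels' protocols.

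Peaks were merged and gene ends taken from RefSeq genes on GRCm38.p6, 1-based. That table has no strand, and direction came from the promoter windows. Libraries were compared by exact permutation over the 3 splits of 4 libraries, and shares of regions have exact Clopper-Pearson intervals with Python 3.11.15, NumPy 2.4.6, pandas 2.3.3 and SciPy 1.17.1. The procedures were tested on simulated data. The regions and gene lists were chosen with earlier results of these data known. Named pairs were the 13 known pairs, up to 2 kept, mock-only and BMH-21-only regions per gene list, the 5 strongest of each class, the 3 widest, the regions near most genes, and the 3 with the largest rise or drop in percentile. Changed head-to-head regions outside this rule were named after their values were seen. A further known pair and a meiosis region are not reported here. Same-numbered libraries did not deviate together (correlation −0.0169 over 2211 regions), so the numbers were not treated as pairs.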

Additional observations from a re-analysis of the deposited data

How the results depend on the processing

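The higher mock-only share of lone starts than of head-to-head regions held in all 12 alternatives, by 5.96 to 16.0 points, against 12.1 points as reported, and that of regions near 1 gene over shared regions by 3.33 to 10.3 points. The gap between head-to-head and lone-start shares differed by 5.45 to 16.4 points, and that in percentile by −8.79 to −5.28 points. The head-to-head, lone-start, tail-to-tail and summit results were chosen after seeing the data. The shift of summits was −120 to −116 bp without each library in turn and −115 bp in regions with 1 peak per library. With lists of equal length, the share of regions with a peak turned to 21.4 points for shared and 6.70 points for regions near 1 gene. Mock-only shares were then 2.27% of shared, 9.41% of single-gene, 0.696% of head-to-head and 6.66% of lone-start regions, and BMH-21-only shares 21.7% of shared, 15.9% of single-gene, 11.1% of head-to-head and 13.1% of lone-start regions, and the gap between tail-to-tail and lone-end shares turned to 15.4 points. That setting removes the weaker peaks of the longer lists by construction. With a 2.5 kb window, the change in percentile turned to 11.4 points for shared regions and 13.0 points for the gap to single-gene regions, and the cause was not tested. In the same order of 6 shares, the values were 32.5%, 35.9%, 7.23%, 20.3%, 5.24% and 6.0% with the 2.5 kb window, 8.64%, 18.1%, 0.720%, 11.4%, 1.72% and 3.22% with a 500 bp window, 34.6%, 39.4%, 24.8%, 31.7%, 23.2% and 25.7% with summits widened by 100 bp to either side, and 21.4%, 31.6%, 4.59%, 20.6%, 4.63% and 6.29% with a minimum cover of 50%. BMH-21-only shares of head-to-head and lone-start regions were 23.2% and 25.2% with widened summits, and lone starts stood at 4.32% with 50% cover, 2.37% with 500 bp and 3.86% with 2.5 kb. When a mock-only region was allowed in 1 BMH-21 library, the mock-only shares were 20.7%, 30.0%, 3.66% and 18.1%. Without predicted or readthrough genes, 23.9% of single-gene and 13.1% of lone-start regions were mock-only. Leaving out each library gave 18.8 to 22.3% mock-only for shared, 27.0 to 30.4% for single-gene, 2.58 to 3.19% for head-to-head and 15.7 to 17.7% for lone-start regions, and 3.29 to 5.36% and 4.90 to 7.06% BMH-21-only for shared and single-gene regions, with 1.21 to 2.56% for head-to-head and 3.30 to 4.61% for lone-start regions. A smallest −log10 q of 5 turned no direction. With the replicate block, which allows no p below 0.5, the values were those reported, such as −17.2 points for shared regions and −23.4 points for single-gene regions. Depth is unknown and limits which weak peaks were called.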
